A study of Homo sapiens with 26 samples.

Results

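Cells make cholesterol and fatty acids from acetyl-CoA, and the enzymes of both routes are controlled together by the sterol regulatory element-binding proteins (SREBPs). When membranes hold little cholesterol, the escort protein SCAP carries the SREBP precursors from the endoplasmic reticulum to the Golgi, where proteases release a transcription factor that turns on the synthesis genes. When sterol is plentiful, INSIG1 holds SCAP back. Dividing B cells need both lipids for new membrane, and germinal-centre lymphomas divide fast.

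The 33 genes described here are SREBP-controlled lipid synthesis genes, taken from a fixed list. The list was chosen with earlier results of these data known. All 33 were found among the 58592 genes of the count tables. They fall into 7 genes of the mevalonate steps, 12 genes from squalene to cholesterol, 5 genes of SREBP control and sterol transport, and 9 genes of fatty acid synthesis, elongation and desaturation. They were read in poly(A) RNA-seq of 2 human lymphoma lines of germinal-centre B-cell origin, OCI-Ly7 and SUDHL4. Every cell of either line, controls included, carried dCas9-BFP-KRAB, a catalytically dead Cas9 fused to a blue marker and to a repressor domain and expressed from the SFFV promoter, together with a lentiviral guide. The guide was a non-targeting one (control) or aimed at POU2F2, which encodes the octamer-binding factor OCT2, or at POU2AF1, which encodes its B-cell coactivator OCA-B. OCI-Ly7 was grown in Iscove's medium with 20% serum and SUDHL4 in RPMI-1640 with 10% serum, so line and medium cannot be told apart.

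The 26 deposited tables held 22 distinct libraries. OCI-Ly7 had 4 libraries with the control guide, 6 with POU2AF1 and 8 with POU2F2 knocked down. SUDHL4 had 1 with the control guide, 1 with POU2AF1 and 2 with POU2F2 knocked down. All SUDHL4 libraries were labelled batch 1, so only OCI-Ly7 libraries could show a batch difference. Only 1 of the 4 OCI-Ly7 control libraries belonged to batch 1 of the labels, against 4 of the 6 POU2AF1 knockdown libraries, and all 8 POU2F2 knockdown libraries were labelled batch 2. Of these 8, replicate 3, labelled 48 h, held 622 CPM (read counts relative to the TMM-scaled library size) of FASN against 156 to 346 in the other 7. The 5 batch 1 libraries of OCI-Ly7 held 557 to 675. OCI-Ly7 POU2AF1 knockdown replicate 3 was also labelled 48 h. So was the table of control replicate 3, which repeated the sum of control replicates 1 and 2, kept here as the batch 1 control library of OCI-Ly7. The remaining labels gave no time. Nothing in the labels says that libraries of a group came from separate cultures or clones, so p-values measure the spread between these libraries, which may be technical. Deposited totals ran from 24959865 to 53155548 estimated read counts per table. B-cell and germinal-centre marker genes (6 of 6 each) passed 1 TPM in every group, whereas 7 of 8 T and NK markers, CD3D and CD3G among them, and 5 or 6 of 6 myeloid markers, CD14 among them, stayed under 1 TPM. The germinal-centre markers summed to 224 to 333 TPM in the OCI-Ly7 POU2AF1 knockdown libraries and to 498 to 606 TPM in the controls, and their part in the results below was not tested. In bulk RNA, fewer cells of a state and less RNA per cell cannot be told apart. In OCI-Ly7 POU2AF1 knockdown replicate 1, which stood apart, mitochondrial genes took 25.8% of the counts, against 7.04% to 14.0% in all other libraries.

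The targeted genes checked the labels. In OCI-Ly7, POU2AF1 lay at 445 to 471 CPM in the control libraries and at 27.3 to 87.9 CPM in the POU2AF1 knockdown. POU2F2 lay at 207 to 407 CPM in the control and at 55.7 to 148 CPM in the POU2F2 knockdown, without overlap. The fitted POU2F2 change there was -1.57 on the log2 scale and missed the threshold (edgeR adjusted p = 0.0559). In SUDHL4, POU2AF1 went from 442 to 79.8 CPM and POU2F2 from 330 to 43.5 and 55.3 CPM.

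The promoters of the members show what the list shares beyond its rule. In RefSeq windows of 300 bases (250 before the annotated start and 50 after it, GRCh38.p14), found for 29 of the 33 members, 5 motifs were searched on both strands. The sterol regulatory element, the site SREBPs bind, searched in the form shown in capitals below, was in 1 member promoter, that of SREBF2, and in 0.0456% of all 35116 RefSeq promoters. The octamer ATTTGCAT, the site read by OCT2, was also in SREBF2 alone among members and in 1.77% of all promoters. The CCAAT box (CCAAT), read by the factor NF-Y that often acts beside SREBPs, was in 22 of 29 members against 34.6% of all promoters. The GC box (GGGCGG) was in 26 of 29 members against 45.0%, and the E-box (CACGTG) in 5 of 29 against 7.26%. A member was counted if any of its RefSeq promoters held the motif, whereas the percentages are of single promoters. A gene with several promoters thus had more chances to count, and the shares are not strictly alike. A match is a description of letters, not a bound site, and a missing match says only that these letters are not in the window.

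The stretches below are shown because SREBF2, the gene of the SREBP that mainly drives sterol synthesis, holds both the sterol element and the octamer, and because INSIG1 (SREBP control), HMGCS1 (mevalonate steps) and SCD (fatty acids) are members whose values are described below. Each is the RefSeq promoter up to the first annotated exon base of its gene, 5′ to 3′ on the gene's strand, from GRCh38.p14. Capitals mark the octamer (ATGCAAAT, its reverse complement), the sterol regulatory element (the second run of capitals in SREBF2) and the CCAAT box (CCAAT or ATTGG). SREBF2 spans chr22:41832855-41833078 on the plus strand and lies in an exon of the antisense gene SREBF2-AS1. INSIG1 spans chr7:155297628-155297775 on the plus strand. HMGCS1 spans chr5:43313513-43313662 on the minus strand. SCD spans chr10:100346983-100347123 on the plus strand.
SREBF2: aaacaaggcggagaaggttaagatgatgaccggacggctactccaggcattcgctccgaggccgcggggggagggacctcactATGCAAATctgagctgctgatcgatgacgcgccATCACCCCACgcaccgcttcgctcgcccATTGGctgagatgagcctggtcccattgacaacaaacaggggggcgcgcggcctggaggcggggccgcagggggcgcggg
INSIG1: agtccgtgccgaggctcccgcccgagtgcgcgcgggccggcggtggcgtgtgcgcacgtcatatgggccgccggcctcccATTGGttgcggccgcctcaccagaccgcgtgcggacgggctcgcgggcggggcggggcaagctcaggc
HMGCS1: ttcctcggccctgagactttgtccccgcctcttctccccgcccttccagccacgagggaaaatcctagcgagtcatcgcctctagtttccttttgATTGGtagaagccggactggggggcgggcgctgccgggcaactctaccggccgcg
SCD: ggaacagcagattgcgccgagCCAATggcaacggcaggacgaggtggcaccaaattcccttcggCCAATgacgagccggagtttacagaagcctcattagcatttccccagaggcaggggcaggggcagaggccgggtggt
In SREBF2 the octamer began 167 bases before the RefSeq start, the sterol element 134 bases before it and the CCAAT box 106 bases before it. SCD held 2 CCAAT boxes, 229 and 186 bases before its start. SREBF2 itself, the member with the octamer, was called changed in no knockdown comparison. Its fitted log2 changes were -0.23 ± 0.22 and -0.05 ± 0.194 in OCI-Ly7 with POU2AF1 and POU2F2 knocked down, and -0.04 ± 0.122 and 0.02 ± 0.106 in SUDHL4 (fit value ± SE).

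Levels differed widely between members. On the TPM scale, which allows genes to be compared per length, FDPS, the synthase of farnesyl diphosphate, led in the OCI-Ly7 controls at 302 ± 76.1 TPM (SD, n = 4). FDFT1, squalene synthase, followed at 252 ± 79.0 TPM, then SCD, the desaturase that makes oleate, at 165 ± 71.4 TPM and SREBF2 at 155 ± 52.9 TPM. The ranges of neighbours in this order overlapped. At the low end, ACSS2, which makes acetyl-CoA from acetate, lay at 7.33 ± 3.15 TPM, the fatty acid desaturase FADS2 at 1.24 ± 0.465 TPM and its neighbour FADS1 at 0.0170 ± 0.0226 TPM. In the single SUDHL4 control library FDFT1 led at 523 TPM, ahead of FDPS at 264, INSIG1 at 183 and SCD at 161 TPM, and FADS2 (2.41 TPM) and ACSS2 (0.395 TPM) were the lowest.

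**Figure D1:**
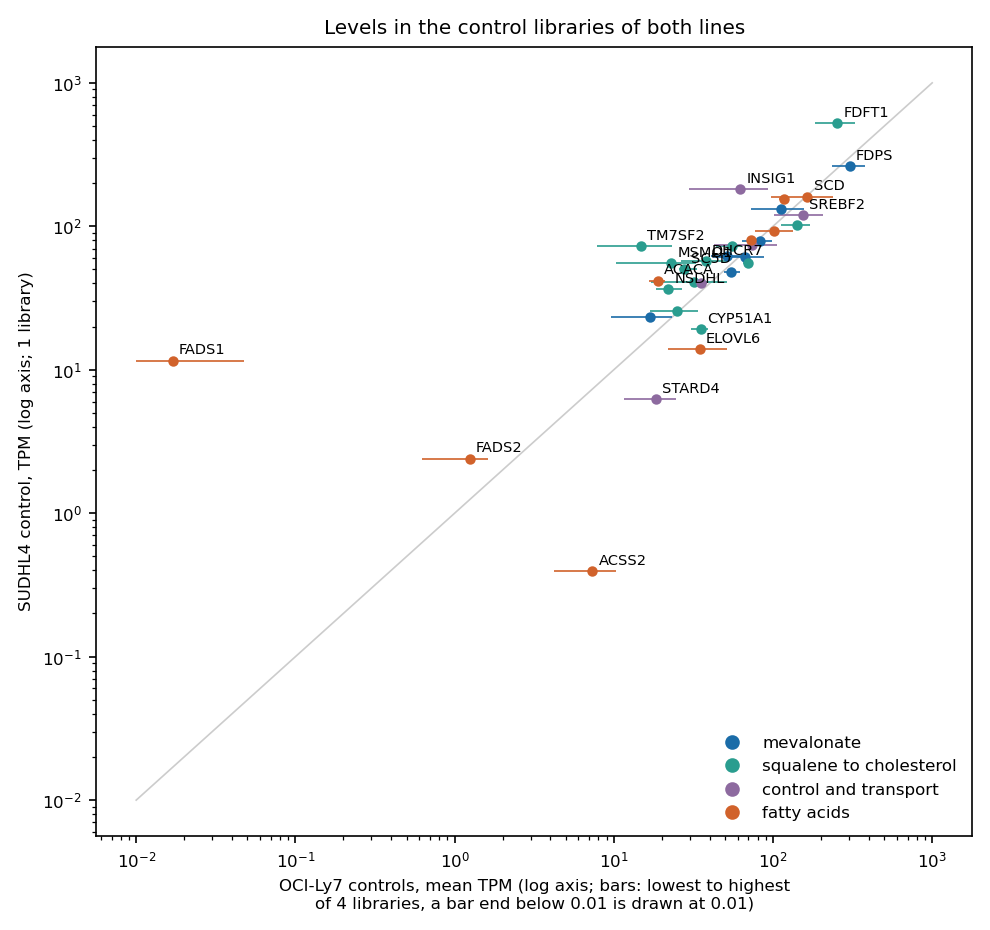
TPM of the 33 genes in the OCI-Ly7 controls (horizontal, mean with the lowest and highest of 4 libraries) and in the single SUDHL4 control library (vertical), both axes logarithmic, coloured by role. The grey line marks equal levels. FADS1 (0.0170 against 11.6 TPM) and TM7SF2 (14.9 against 72.4 TPM) lie far above it and ACSS2 (7.33 against 0.395 TPM) far below it.

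Of the members, 3 differed widely between the lines. FADS1, the desaturase that completes arachidonate synthesis, had 0 to 7 counts in each of the 18 OCI-Ly7 libraries and 1170 to 1846 counts in the 4 SUDHL4 libraries. TM7SF2, a sterol reductase acting after CYP51A1, lay at 7.13 to 21.3 CPM in OCI-Ly7 and at 74.8 to 142 CPM in SUDHL4. ACSS2 went the other way, with 0.882 to 23.5 CPM in OCI-Ly7 and 0.177 to 0.304 CPM in SUDHL4. The lines did not overlap in any of these 3 genes.

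Tested between control libraries in a fit of both lines, 8 of 33 members differed, against 23.5% of all genes tested in that comparison. The batch term of this fit came from OCI-Ly7 libraries alone. Higher in OCI-Ly7 were ACSS2 (log2 difference 4.83 ± 1.34), the cholesterol carrier STARD4 (1.15 ± 0.396) and CYP51A1, lanosterol demethylase (0.83 ± 0.28). Lower in OCI-Ly7 were FADS1, TM7SF2 (-2.33 ± 0.503, edgeR adjusted p = 0.00181), ACACA, which makes malonyl-CoA (-1.14 ± 0.223), ACLY, which makes cytosolic acetyl-CoA from citrate (-0.72 ± 0.228), and the sterol desaturase SC5D (-0.65 ± 0.191). The fitted FADS1 value of -8.32 rests on a prior count, since OCI-Ly7 had hardly a read, and the levels above are the better description. Neighbouring FADS2 did not pass the test (-1.40 ± 0.633, adjusted p = 0.126) and was low in both lines. Only 1 SUDHL4 control library entered, and 4 members were called without OCI-Ly7 control replicate 1 and 3 with no filter on low counts.

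**Figure D2:**
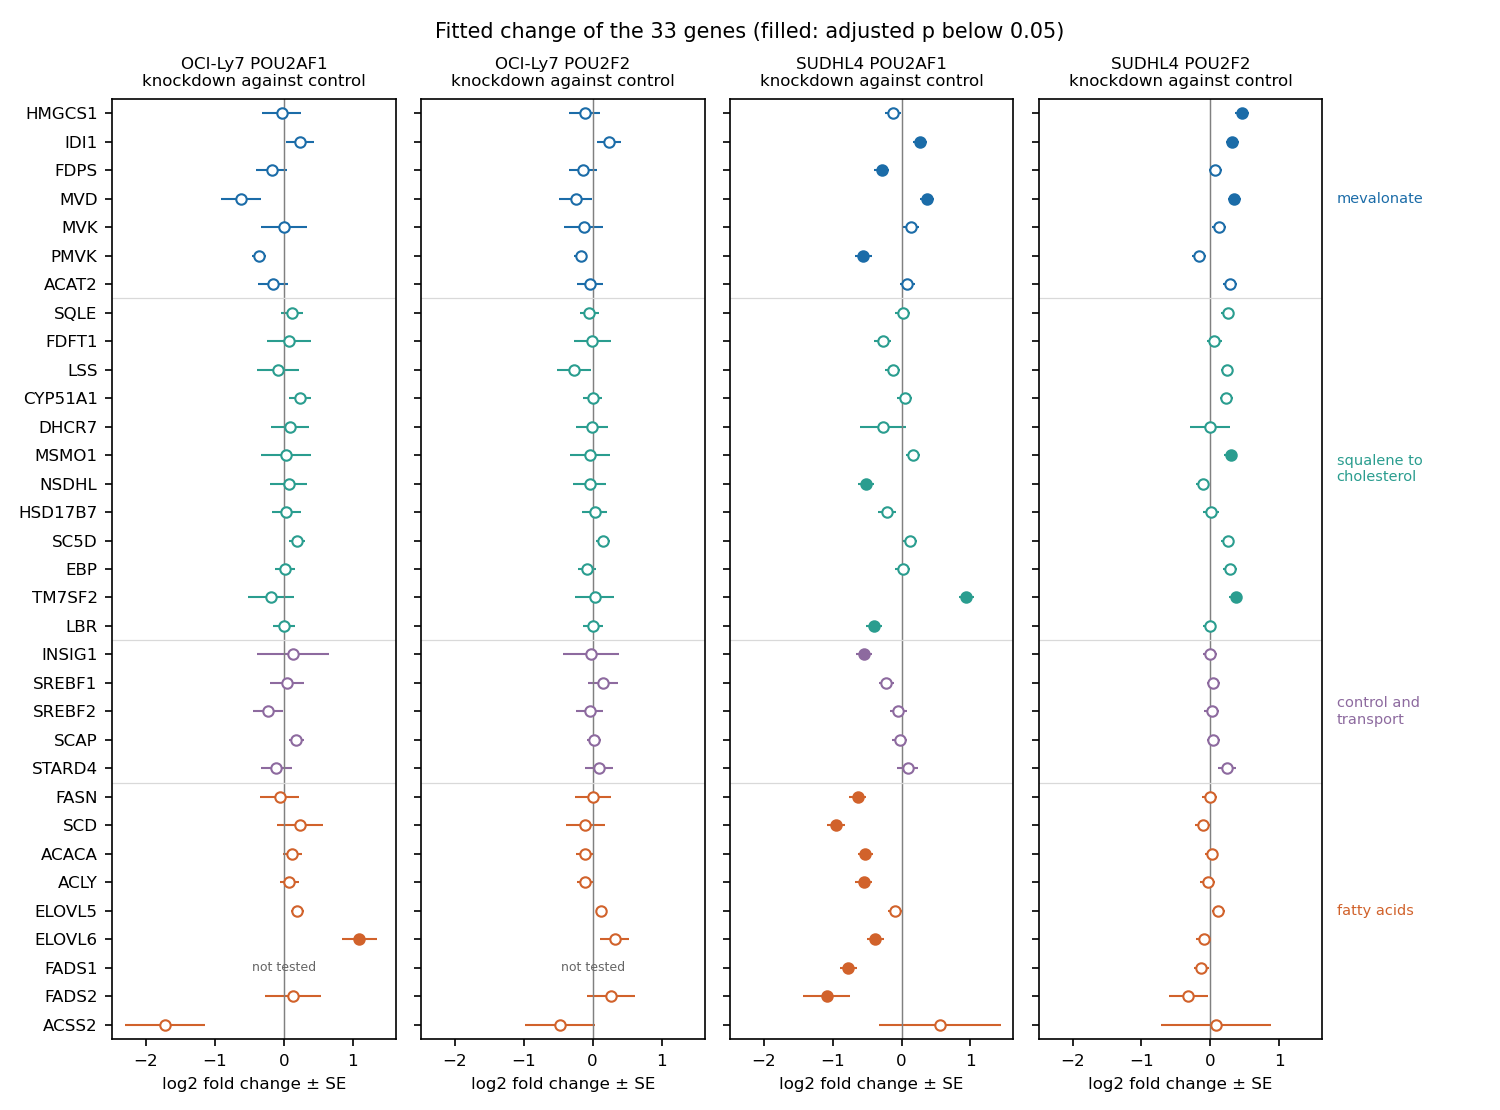
Fitted log2 fold change of each of the 33 genes (bars: standard error) in the 4 comparisons of knockdown with control, grouped by role. Filled points passed an adjusted p of 0.05, and FADS1 was too low to test in OCI-Ly7. ELOVL6 at 1.10 is the filled point of the OCI-Ly7 panels. In SUDHL4 with POU2AF1 knocked down, 7 of 9 fatty acid genes are filled and below 0, and with POU2F2 knocked down 5 sterol genes are filled and above 0.

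With POU2AF1 knocked down in OCI-Ly7, 1 of 32 tested members passed the test, and it was higher (0.887% of all genes passed, 0.281% higher and 0.606% lower). The gene was ELOVL6, the elongase that turns palmitate into stearate. It lay at 33.7, 36.0, 52.0 and 63.3 CPM in the 4 control libraries. In the POU2AF1 knockdown it lay at 136, 101, 98.8, 98.9, 90.3 and 76.7 CPM in replicates 1 to 6. In CPM all 6 knockdown libraries were above all 4 controls, with a fitted log2 change of 1.10 ± 0.251 (edgeR adjusted p = 0.0466). On the TPM scale the ranges of the gene overlapped, at 21.77 to 51.64 TPM in the controls and 45.91 to 59.15 TPM in the knockdown. In the POU2F2 knockdown ELOVL6 ranged from 36.7 to 79.6 CPM, and 6 of these 8 libraries lay within the range of the controls, the other 2 above it. The call held without POU2AF1 knockdown replicate 1, the library of high mitochondrial share (1.04, adjusted p = 0.0480). Within batch 1 alone the change was 1.72 (adjusted p = 0.0762, 1 control library) and within batch 2 alone it was 0.75 (adjusted p = 1). The call was also lost in 13 of the 18 fits that each left out 1 library. In 12 of them the change was 1.02 to 1.17 (adjusted p = 0.0556 to 0.146), and without control replicate 1, the only batch 1 control, it was 0.75 (adjusted p = 0.939). With the series blocks it was 1.22 ± 0.178 (edgeR adjusted p = 0.000672), and limma on log2(TPM + 1) gave 0.70 (adjusted p = 0.326).

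By transcript, the rise of ELOVL6 was seen in ELOVL6-201 and ELOVL6-202, and transcripts were described without a test. The gene lies at chr4:110045846-110199199 on the minus strand (GENCODE release 29, GRCh38). Its full-length coding transcript ELOVL6-201 had 14.1 ± 5.22 TPM in the controls (SD, n = 4) and 30.2 ± 5.64 TPM in the POU2AF1 knockdown (n = 6), and the lowest knockdown library, at 23.0 TPM, was above the highest control, at 20.0 TPM. The coding transcript ELOVL6-202 went from 3.14 ± 0.910 to 6.48 ± 0.834 TPM, again without overlap. The short processed transcript ELOVL6-207 had 13.5 ± 5.41 TPM in the controls and 10.7 ± 3.38 TPM in the knockdown, and these ranges overlapped. ELOVL6-203 also overlapped, at 0.424 to 4.49 TPM in the controls and 0.696 to 3.78 TPM in the knockdown. Salmon divides reads among overlapping transcripts by a model, so transcript levels are less certain than the gene's.

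**Figure D3:**
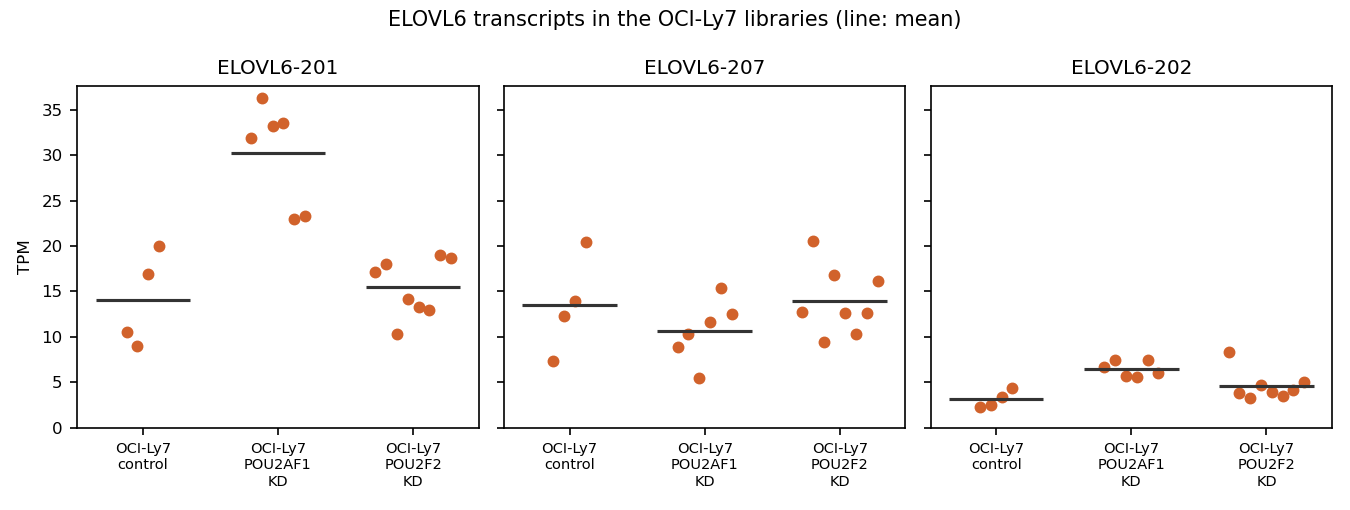
TPM of the 3 most abundant ELOVL6 transcripts in each OCI-Ly7 library by group (points, with the mean as a line). The 6 POU2AF1 knockdown libraries lie above the 4 controls for ELOVL6-201 (30.2 against 14.1 TPM on average) and for ELOVL6-202 (6.48 against 3.14 TPM), and overlap them for ELOVL6-207.

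Among the other fatty acid genes of OCI-Ly7, ACSS2 had the largest fitted change. Its control libraries held 5.57, 8.53, 13.3 and 15.7 CPM. The POU2AF1 knockdown libraries held 4.36, 0.882, 1.08, 1.13, 2.32 and 4.74 CPM in replicates 1 to 6. Every knockdown library was under every control, yet the fitted change of -1.72 ± 0.579 missed the threshold (adjusted p = 0.303). It did not pass with DESeq2 (adjusted p = 0.0923) and passed in a fit that also took the series marks s0 to s3 of the labels as blocks (-1.64 ± 0.376, edgeR adjusted p = 0.0187). PMVK, which phosphorylates mevalonate phosphate, was also without overlap, at 35.3 to 40.9 CPM in the controls and 24.1 to 31.8 CPM in the knockdown. Its change of -0.36 ± 0.105 did not pass with edgeR (adjusted p = 0.156), and it did with DESeq2 (-0.35, adjusted p = 0.0449) and with the series blocks (-0.39 ± 0.0848, edgeR adjusted p = 0.012). With these blocks 3 members were called, against 5.59% of all genes. MVD, mevalonate diphosphate decarboxylase, lay at 50.8, 21.6, 51.4 and 58.3 CPM in the controls and at 19.7 to 57.8 CPM in the knockdown, with overlap (-0.62 ± 0.292, adjusted p = 0.781). Unadjusted p-values were counted for members only, without a share of all genes. At an unadjusted p under 0.05 there were 4 of 32 members, ELOVL6, ACSS2, PMVK and MVD. The other 28 ranged from -0.23 ± 0.22 for SREBF2 to the isopentenyl isomerase gene IDI1 at 0.24 ± 0.208, and the median of all 32 was 0.04 against 0.00 for all genes tested.

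With POU2F2 knocked down in OCI-Ly7, 0 of 32 members passed edgeR's test, and 0% of all 16001 genes did. At an unadjusted p under 0.05 the count of members was also 0, and DESeq2 and limma called 0 as well. With the series blocks the count was also 0 (0.0812% of all genes). The largest fitted changes were those of ACSS2 (-0.47 ± 0.501), ELOVL6 (0.32 ± 0.208) and lanosterol synthase LSS (-0.27 ± 0.251), each less than 2 standard errors from 0. ACSS2 ranged from 3.84 to 23.5 CPM over the 8 knockdown libraries, of which 4 lay under the lowest control, and LSS from 43.8 to 85.6 CPM against 45.0 to 122 CPM in the controls. Between the 2 knockdowns of OCI-Ly7 the count was 0 of 32, against 0.162% of all genes, with 1 member, ELOVL6, at an unadjusted p under 0.05 (-0.78 ± 0.241, POU2F2 against POU2AF1 knockdown). With the series blocks ELOVL6 passed (-0.82 ± 0.171, edgeR adjusted p = 0.031), as 1.26% of all genes did.

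**Figure D4:**
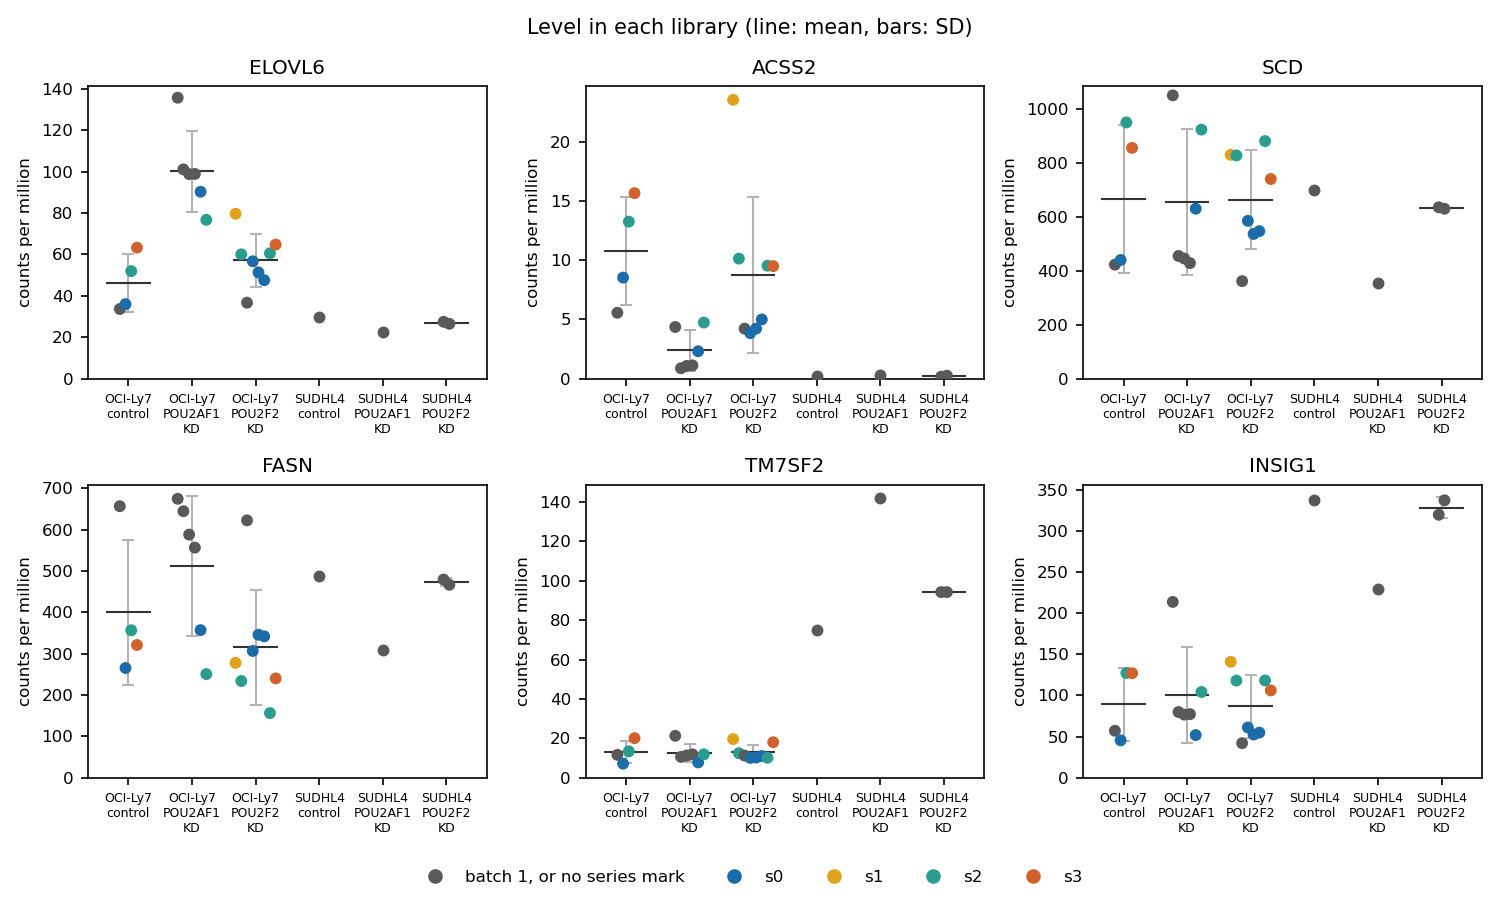
CPM of 6 members in each library (points), by group on the horizontal axis and coloured by the series mark of the labels. Lines are group means and bars SD, drawn for groups of 2 or more libraries. ELOVL6 and ACSS2 separate the OCI-Ly7 POU2AF1 knockdown from the control, TM7SF2 separates the lines, and INSIG1 and SCD in OCI-Ly7 follow the series marks, with s0 lower than s2.

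Within batch 2 of OCI-Ly7, 15 of 32 members differed between libraries marked s2 and s0 in the fit with series blocks (11 higher and 4 lower in s2), a share under the 52% of all genes tested that did. The labels do not say what s0 to s3 stand for. INSIG1, the sterol brake on SREBP, lay at 45.4 to 61.1 CPM in the 5 libraries marked s0 and at 104 to 127 CPM in the 4 marked s2, across control and both knockdowns, with no overlap. Libraries marked s3 lay at 106 and 127 CPM and the one marked s1 at 141 CPM. INSIG1 was 1.15 ± 0.312 higher in s2 on the log2 scale (edgeR adjusted p = 0.00831). SCD (0.71 ± 0.234), MSMO1, which removes sterol methyl groups (0.74 ± 0.236), SREBF2 (0.61 ± 0.0856) and SREBF1 (0.57 ± 0.149) were also higher in s2. NSDHL, which works in the same demethylation as MSMO1, was lower in s2 (-0.78 ± 0.088), as were EBP, LBR and FASN.

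Averaged over 19 sterol genes and over 8 fatty acid genes (FADS1 left out), the arms varied between OCI-Ly7 libraries of 1 group. Relative to the mean of the controls, the control libraries themselves ran from -0.31 to 0.24 on the log2 scale in the sterol arm and from -0.24 to 0.24 in the fatty acid arm. POU2AF1 knockdown replicate 1 had the highest sterol arm, at 0.61, and held 394 CPM of HMGCS1, which makes HMG-CoA, against 149 to 195 CPM in the other 5 libraries of its group. The same library had the highest mitochondrial share, and the part of that share in these levels was not tested. The other 5 POU2AF1 knockdown libraries lay between -0.16 and 0.01 in the sterol arm, inside the range of the controls. In the fatty acid arm, replicates 2, 3 and 4 lay at -0.25, -0.30 and -0.30, below the lowest control, replicate 1 at 0.37 lay above the highest, and replicates 5 and 6 (-0.08 and 0.06) lay inside. The 8 genes counted equally, and the weakly expressed ACSS2 was among them. ACSS2 held 0.882 to 4.74 CPM in this knockdown, lowest in replicates 2, 3 and 4, against 5.57 to 15.7 CPM in the controls. The part of ACSS2 in the low means of these replicates was not tested, and these means are not read as a fall of the fatty acid genes as a group. The arm without ACSS2 was not computed.

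**Figure D5:**
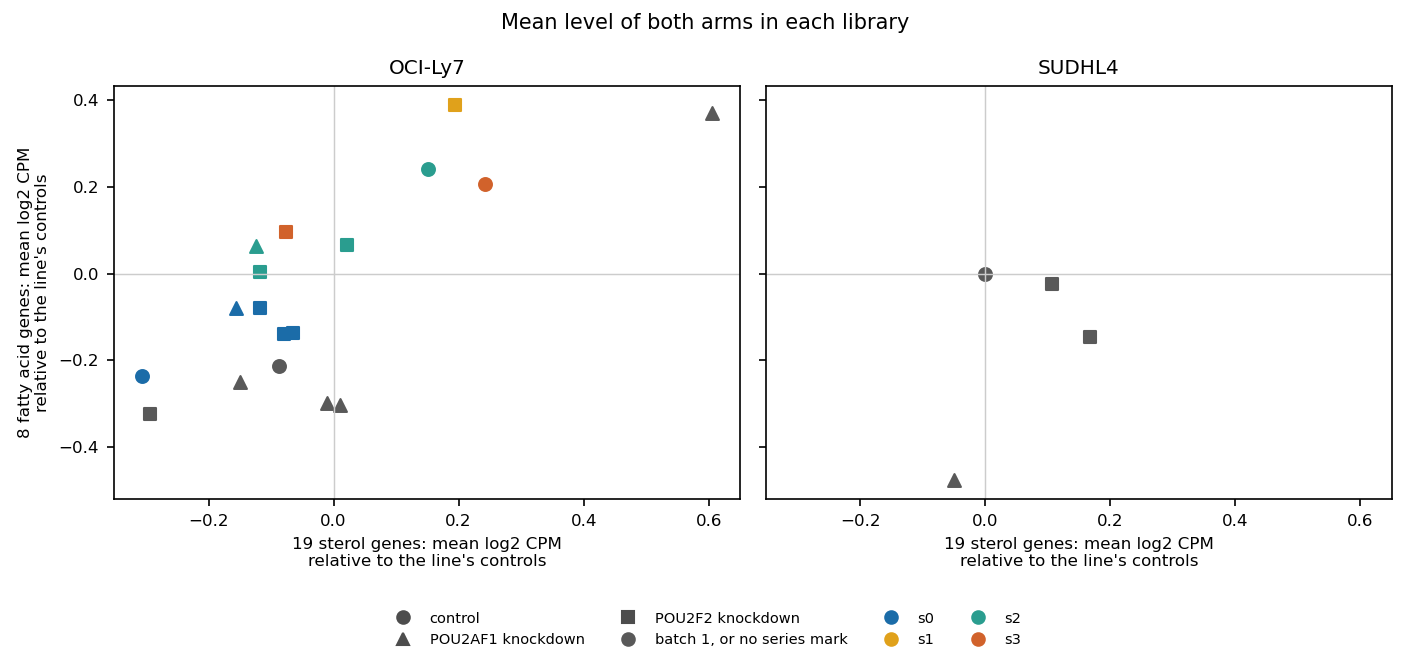
Mean log2 CPM of the 19 sterol genes (horizontal) and 8 fatty acid genes (vertical) in each library, relative to the mean of the line's control libraries, with shape for guide and colour for series mark. POU2AF1 knockdown replicate 1 of OCI-Ly7 lies far right at 0.61, and the SUDHL4 POU2AF1 knockdown library lies lowest at -0.48 in the fatty acid arm.

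In SUDHL4 with POU2AF1 knocked down, fatty acid genes were lower and sterol genes split. Of the 33 members 15 passed the test, 3 higher and 12 lower, against 36.8% of all genes (18% higher and 18.8% lower). Of the 9 fatty acid genes 7 were lower and 0 higher, with a median log2 change of -0.55 against 0.01 for all genes tested. DESeq2 and limma on TPM each called 5 of the 9, without ELOVL6 and FADS2, and their shares over all genes are not given here. Of the 19 sterol genes 3 were higher and 4 lower, with a median of 0.02. A single control and a single knockdown library were compared, and the spread came from the 2 POU2F2 knockdown libraries of the line alone, with 1 residual degree of freedom. In a fit of both lines, whose libraries of OCI-Ly7 spread more, 0 members were called, against 1.66% of all genes, with SCD at -0.97 and TM7SF2 at 0.92, for example, close to the values below. The germinal-centre markers summed to 853 TPM in the control, 501 TPM with POU2AF1 and 669 and 722 TPM with POU2F2 knocked down, the B-cell markers to 1891, 3626, 2701 and 2773 TPM, and their part in these changes was not tested. Some markers of other cell types were also called higher with POU2AF1 knocked down. CD68, a lysosomal protein abundant in macrophages, went from 0.602 to 4.46 TPM, and the 6 myeloid markers together from 0.948 to 5.14 TPM, with CD14 at 0.244 and 0.0891 TPM. CD3E went from 1.06 to 2.11 TPM, and CD3G, CD4 and ITGAM, also called, stayed at or under 0.360 TPM, while CD3D was at 0 in all 4 libraries. The part of these markers was not tested either. SUDHL4 values below, given in the order control, POU2AF1 knockdown, POU2F2 knockdown replicates 1 and 2, therefore describe these 4 libraries.

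SCD had 698, 356, 636 and 630 CPM, the lowest in the POU2AF1 knockdown (-0.96 ± 0.129 against control, edgeR adjusted p = 3.01e-07). FASN, the synthase of palmitate, had 487, 310, 479 and 467 CPM (-0.64 ± 0.123). ACLY had 525, 355, 501 and 496 CPM (-0.55 ± 0.124). In all 3 genes the control and both POU2F2 knockdown libraries lay close together and the POU2AF1 knockdown library lay well under them. ACACA showed the same order at 139, 95.1, 136 and 138 CPM (-0.52 ± 0.105). FADS1 had 38.4, 22.2, 33.2 and 35.4 CPM (-0.77 ± 0.123), and FADS2 had 4.12, 1.92, 2.72 and 3.72 CPM (-1.08 ± 0.338). ELOVL6, higher in OCI-Ly7, was lower here at 29.6, 22.4, 27.5 and 26.5 CPM (-0.38 ± 0.127, adjusted p = 0.0176). Of the 9 genes only ELOVL5, which extends polyunsaturated chains (-0.09 ± 0.108), and ACSS2, with 8 to 16 counts in a library, did not pass.

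The 3 sterol genes higher in SUDHL4 with POU2AF1 knocked down were led by TM7SF2. It had 74.8, 142, 94.3 and 94.3 CPM, and the change of 0.94 ± 0.104 was the largest rise among the members (edgeR adjusted p = 6.11e-09). MVD (56.9, 72.7, 67.9 and 73.4 CPM) rose by 0.37 ± 0.106 and IDI1 (99.6, 119, 125 and 118 CPM) by 0.27 ± 0.105. Those 2 genes were above the control in all 3 knockdown libraries. The 4 lower sterol genes were PMVK (34.98, 23.5, 29.7 and 31.3 CPM, -0.55 ± 0.124), NSDHL (47.8, 33.03, 44.3 and 42.2 CPM, -0.51 ± 0.113), FDPS (223, 181, 229 and 230 CPM, -0.29 ± 0.112) and LBR (236, 177, 244 and 213 CPM, -0.40 ± 0.116). LBR and TM7SF2 encode enzymes for the same reduction, and here they moved in opposite directions. INSIG1 (337, 229, 320 and 337 CPM) was also lower (-0.54 ± 0.118). On the TPM scale the median of all genes tested shifted to -0.29 in this comparison. The share of all genes called by limma is not given here. Of the members, limma called 1 higher (TM7SF2) and 14 lower. These 15 were not the same set: IDI1, MVD, ELOVL6 and FADS2 were not called, and SREBF1, FDFT1, HMGCS1 and DHCR7 were called lower. FDPS has near-identical pseudogene copies and TM7SF2 overlaps its neighbour VPS51, so their reads can be divided in more than one way.

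With POU2F2 knocked down in SUDHL4, 5 of 33 members passed the test, all higher and all of the sterol routes, against 7.35% of all genes (4.79% higher and 2.56% lower). HMGCS1 had 263 CPM in the control and 359 and 346 CPM in the knockdown libraries (0.45 ± 0.103, edgeR adjusted p = 0.00346). TM7SF2 (0.37 ± 0.0913), MVD (0.34 ± 0.0932) and IDI1 (0.32 ± 0.092) rose with the values given above. MSMO1 had 72.4 CPM in the control and 85.3 and 87.9 CPM in the knockdown (0.29 ± 0.0906). In each of these 5 genes both knockdown libraries were above the single control. The median of the 19 sterol genes was 0.24 against 0.01 for all genes, and that of the 9 fatty acid genes was -0.04. DESeq2 called 1 of these members, HMGCS1, and limma on TPM and the fit of both lines called 0 (0.0951% of all genes in the latter).

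Set directly against each other, the 2 SUDHL4 knockdowns differed in 16 of 33 members, 15 higher and 1 lower with POU2F2 knocked down, against 26.2% of all genes. SCD (0.85 ± 0.115), FADS1 (0.64 ± 0.109), FASN (0.63 ± 0.109), ACACA (0.54 ± 0.0932) and ACLY (0.50 ± 0.109) led among the fatty acid genes. HMGCS1 (0.58 ± 0.103) and INSIG1 (0.53 ± 0.104) led elsewhere, and TM7SF2 was the member lower (-0.57 ± 0.0872). LSS, FDPS, FDFT1, EBP, LBR, NSDHL, PMVK and SREBF1 also passed, with differences from 0.26 to 0.40. The fit of both lines called 0 of them, against 0.196% of all genes.

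Whether the lines responded differently was tested as an interaction in the fit of both lines. For POU2AF1 knockdown 0 of 33 members passed, against 0.798% of all genes. At an unadjusted p under 0.05, where the share of all genes is not given, there were 3 members. These were ELOVL6 (-1.49 ± 0.51, SUDHL4 response minus OCI-Ly7 response, edgeR adjusted p = 0.227), ACACA (-0.66 ± 0.303) and ACLY (-0.64 ± 0.301). For POU2F2 knockdown 0 of 33 passed, against 0.0106% of all genes, and 0 had an unadjusted p under 0.05. DESeq2 called 0 in both, and limma on TPM called 1 for POU2AF1, ACACA (-1.35, adjusted p = 0.00696), and 0 for POU2F2. The opposite signs of ELOVL6 in the 2 lines were therefore not shown to differ after adjustment.

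Genes around the members were read from further lists. In OCI-Ly7, 0 genes of 5 related lists passed in either knockdown in the fit with batch alone. With the series blocks and POU2AF1 knocked down, where 5.59% of all genes passed, some related genes did. LPIN1 (0.67 ± 0.134), ABCG1 (0.76 ± 0.168), SPRING1 (0.38 ± 0.0936), HACD2 (0.31 ± 0.0839) and ACSL3 (0.28 ± 0.0636) were higher, and CPT1A (-0.31 ± 0.08) and HSD17B12 (-0.26 ± 0.0713) lower. The number of related genes tested is not given here, so no share of them is set against that percentage. In SUDHL4 with POU2AF1 knocked down, 5 of 10 other genes of SREBP machinery passed, among them ERLIN1, which marks sterol-sensing enzymes for decay (-0.70 ± 0.126), the protease gene MBTPS2, whose product releases SREBP (-0.62 ± 0.139), and SPRING1, needed for SREBP activation (0.57 ± 0.105). Of 11 other sterol genes 3 passed, with TMEM97 lower (-0.50 ± 0.104) and the lysosomal lipase LIPA higher (0.46 ± 0.109). A list of 7 LXR genes held the receptor genes NR1H2 and NR1H3 beside LXR targets, and 1 of the 7 passed. It was MYLIP, a ubiquitin ligase induced by the sterol receptor LXR. MYLIP lay at 27.0 CPM in the control, 65.9 CPM in the POU2AF1 knockdown and 38.3 and 38.8 CPM in the POU2F2 knockdown (1.30 ± 0.113 and 0.54 ± 0.101). Of 16 tested other fatty acid synthesis genes 4 were higher and 4 lower, and of 15 oxidation genes 4 were higher, for example ACADVL (0.61 ± 0.111), and 4 lower, for example CPT1A, the carnitine transferase of the mitochondrial gate (-0.57 ± 0.135). Each of these shares was read against the same 36.8% of all genes.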

How the data were processed

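Poly(A) RNA libraries were made with a stranded kit and sequenced from both ends, per the labels' protocols. The submitters' processing notes name fastp, Salmon 1.5.1 and GRCh38.p13, and the authors deposited estimated counts and TPM for 227912 transcripts per table. How strand entered the counting is not given in the sources used here. Here 205964 transcripts were matched to 58592 genes of GENCODE release 29 (98.4% to 98.9% of counts), values were summed per gene, and expected counts were rounded. The table labelled OCI-Ly7 control replicate 3, 48 h, equalled the sum of control replicates 1 and 2 within 2 reads for 92.9% of 26871 genes and was left out. Of the other tables, 3 pairs (OCI-Ly7 control 1 and 2, SUDHL4 control 1 and 2, SUDHL4 POU2AF1 knockdown 1 and 2) differed by about sampling noise (1.25 to 1.3 times Poisson noise, against 2.23 to 21.8 in 53 other pairs). Each pair was counted as 1 library (counts summed, TPM averaged), by a limit of 1.5 set after the ratios were seen.

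edgeR 4.0.16 (R 4.3.3) fitted quasi-likelihood models with TMM scaling, filterByExpr at a minimum count of 10 and Benjamini-Hochberg adjustment over all genes tested, with a threshold of 0.05. OCI-Ly7 (18 libraries, batch as a term, 16001 genes) and SUDHL4 (4 libraries, 16973 genes) were fitted apart, and line differences in a fit of all 22 libraries (18918 genes). Alternatives were no filter, RLE scaling, DESeq2 1.42.0, limma 3.58.1 on log2(TPM + 1) computed here from the deposited TPM, other batch and series terms, a replicate block and leaving out libraries. The scripts were tested on simulated data. Same-numbered libraries did not deviate together (correlations of -0.502 to 0.594 over 10 pairs, 5 above 0.1), whereas all 13 pairs with the same series mark did (0.301 to 0.674). Promoters are RefSeq's. Members called in a comparison, or the 3 with the largest changes where fewer than 3 were called, are given by name. The members, lists and tests were chosen with earlier results of these data known.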

Additional observations from a re-analysis of the deposited data

Results flagged for a closer look

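In 14 of 96 combinations of gene and group, 1 library lay far from the others of its group by Dixon's criterion, which chance gives in about 1 of 20. Of these, 7 fell in OCI-Ly7 POU2AF1 knockdown replicate 1, the library with 25.8% mitochondrial counts. It was the highest of 6 for HMGCS1 (393.8 CPM), INSIG1 (213.6 CPM), LSS (101.4 CPM), the mevalonate kinase MVK (30.78 CPM), the thiolase ACAT2 (80.47 CPM), TM7SF2 (21.28 CPM) and STARD4 (43.23 CPM). All 7 belong to the sterol routes or to SREBP control and sterol transport. No fatty acid gene met the criterion in this library, but only 8 of the 32 genes checked were fatty acid genes. The split is therefore not read as a trait of the sterol genes. Over all genes, too, this library stood apart, at 16.9 to 21.8 times Poisson noise from the others of its group. Flags that fall in 1 library are not independent of each other. Its fatty acid arm, at 0.37, was nevertheless the highest of its group and above the highest control, at 0.24. Such flags were not counted over all genes. The part of the mitochondrial share was not tested.

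In the OCI-Ly7 POU2F2 knockdown, replicate 1, the only library marked s1, was the highest of 8 for IDI1 (137.2 CPM) and ACSS2 (23.52 CPM). Replicate 3, labelled 48 h, was the highest of 8 for FASN (622.4 CPM). In the POU2AF1 knockdown, replicate 5 was the highest of 6 for NSDHL (41.84 CPM) and replicate 6 the lowest of 6 for LBR (241.5 CPM). Among the 4 controls, replicate 1 was the highest for SC5D (50.87 CPM) and replicate 7 the lowest for STARD4 (17.06 CPM).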

How the results depend on the processing

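Counts of members called moved as follows. Except where given above, the shares of all genes called under these settings are not given. These counts therefore show only how the calls of members moved. For POU2AF1 knockdown in OCI-Ly7 (1 as reported), DESeq2 gave 2 (ELOVL6 and PMVK), limma on TPM 0, series blocks 3, series blocks with POU2F2 knockdown replicate 3 placed in batch 1 also 3, batch 1 alone 0, batch 2 alone 0, and leaving out 1 library 0 to 1. Series blocks without POU2AF1 knockdown library 1 gave 4 (FDPS added), and for POU2F2 knockdown (0) they gave 1 (ACSS2). Between the OCI-Ly7 knockdowns (0), the fit without a batch term gave 2 (ELOVL6 and CYP51A1), series blocks 1, the same with replicate 3 placed in batch 1 also 1, and series blocks without library 1 gave 2. In SUDHL4 the fit of both lines gave 0 for POU2AF1 (15), POU2F2 (5) and their difference (16), and leaving out either POU2F2 library from that fit gave 0 to 0. For POU2AF1, no filter gave 14, RLE 13, DESeq2 11 (1 higher and 10 lower) and limma 15. IDI1 was lost in all 4, MVD, ELOVL6 and FADS2 with DESeq2 and limma, and FDPS with RLE and DESeq2. For POU2F2, DESeq2 gave 1 and limma 0. The line difference for POU2AF1 (0) went to 1 with limma, and the control lines (8) to 3 with no filter and to 4 to 11 when 1 library was left out. With the replicate block in OCI-Ly7 the counts were 1, 0 and 0, as without it, but with POU2AF1 knocked down ELOVL6 moved from 1.10 to 1.74 and ACSS2 from -1.72 to -0.46, and same-numbered libraries did not pair. No paired analysis was possible in SUDHL4 because each of its groups but 1 held a single library.

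Directions reversed in 5 cases, and the cause was not tested. With POU2AF1 knocked down in SUDHL4, limma on TPM gave IDI1 -0.026 (adjusted p = 0.942) and MVD -0.00449 (adjusted p = 0.993). MVD between the OCI-Ly7 knockdowns was -0.15 without a batch term. LSS with POU2F2 knocked down in OCI-Ly7 was 0.39 with the replicate block, and leaving out 1 library gave -0.48 (without control replicate 7) to 0.048 (without control replicate 9). The series blocks with replicate 3 moved or library 1 left out, and the test of s2 against s0, were chosen after seeing the data. Counts were too few for a precise change for FADS1 in OCI-Ly7 (0 to 7 per library) and ACSS2 in SUDHL4 (8 to 16).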

Other observations

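Between libraries of OCI-Ly7 marked s2 and s0, 2 of 7 mevalonate genes passed the test, against 52% of all genes. HMGCS1 (0.13 ± 0.257, s2 minus s0 on the log2 scale) and IDI1 (0.10 ± 0.144) did not. ACSS2 (1.01 ± 0.348), FADS2 (0.66 ± 0.211), MVK (0.63 ± 0.224), STARD4 (0.55 ± 0.146), MVD (0.53 ± 0.162) and HSD17B7 (0.33 ± 0.113) were higher in s2. The median of all 32 members was 0.18 and that of all genes tested 0.01.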
